A study of Mus musculus with 16 samples.

Results

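Of the 17951 genes in the deposited table, 10 are described here: 8 cathepsins (Ctsb, Ctsc, Ctsd, Ctse, Ctsh, Ctsl, Ctss and Ctsz) and 2 cystatins (Cst3 and Cst7). They were taken by gene symbol, from a list chosen with earlier results of these data known. RNA had been sequenced from Cd11b+ and Cd45+ microglia of WT mice (7 libraries) and of TG mice of the 5xFAD strain, whose microglia were sorted into TG Me-X04- (5 libraries) and TG Me-X04+ (4 libraries). All mice, WT included, had been injected with Methoxy-X04, a dye that enters the brain and stains amyloid aggregates, so that Me-X04+ cells are those that carry stained amyloid. The sample labels give 2 months as the age of the WT mice and 6 months as that of the TG mice, while the methods of the study state other ages, so by the labels age and genotype cannot be told apart in any comparison with WT. The 5xFAD strain is a transgenic model of amyloid deposition whose transgenes are driven in neurons by the Thy1 promoter, so that the microglia meet the amyloid but do not make it. Numbers 1 to 4 mark the same TG animals in both sorted populations, by their labels, and TG Me-X04- library 5 has no partner.

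Cathepsins are proteases of endosomes and lysosomes, where they are activated by the acid pH and break down protein that the cell has taken up. Ctsb, Ctsc, Ctsh, Ctsl, Ctss and Ctsz encode papain-like cysteine proteases, whereas Ctsd and Ctse encode aspartic proteases. Cystatins block papain-like cysteine proteases by binding in the active site and do not block aspartic ones. Cystatin C (Cst3) is secreted in bulk by brain cells, and cystatin F (Cst7) is a cystatin of immune cells that is sorted to the same endosomes and lysosomes as its targets, among them cathepsin C, and is a known marker of microglia in amyloid models.

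Between 15623664 and 27579017 reads fell on the listed genes of a library. The share of those reads on mitochondrial genes was at most 24.1% in WT libraries (median 20.4%), against 18.2% to 35.6% for TG Me-X04- (median 18.5%) and 27.2% to 44.8% for TG Me-X04+ libraries (median 34.7%). The 16 libraries separated into 2 sets on the first principal component of their deviations from the group means (37.8% of that variance), with 7 libraries in set A (WT 1 to 3, TG 1 and 2 of both kinds) and 9 in set B (WT 4 to 7 and the other TG libraries). The labels name no batch that would define the sets. The methods of the study name 2 sequencers, 1 of them for samples added later, and do not say which libraries ran on which. Whether the sets follow the sequencers was not tested. Each set holds all 3 groups, and differences within the sets are given beside the pooled ones. All 8 microglial markers were measured, with a summed level of 4530 to 6951 RPKM (reads per kilobase of gene, relative to library size) in WT, 3952 to 7950 in TG Me-X04- and 5047 to 7996 in TG Me-X04+ libraries. Of these markers Tmem119 was lower in TG Me-X04+ against TG Me-X04-, with a log2 fold change (log2FC) of -1.58 (adjusted p = 0.00821). Against WT, Tmem119 (-1.55, adjusted p = 0.00179) and P2ry12 (-0.97, adjusted p = 0.0185) were lower in TG Me-X04+ microglia. In bulk RNA, fewer cells of a type and less RNA per cell cannot be told apart. Comparisons were tested with limma on the deposited log2 RPKM over all genes. DE (differentially expressed) stands for an adjusted p under 0.05 together with a log2FC of 0.7 or more in size.

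The cystatin of lysosomes had the largest fold of the 10 genes in each comparison. Cst7 lay between -0.36 and 1.65 log2 RPKM in the 7 WT libraries (median 1.28), which rested on 10 to 77 reads a library. The TG Me-X04- libraries 1 to 5 read 5.11, 4.26, 5.49, 5.79 and 4.08, and the TG Me-X04+ libraries 1 to 4 read 8.55, 8.66, 9.73 and 9.49. No library of one group reached into the range of another, and the TG Me-X04- libraries lay about midway on the log2 scale. The log2FC was 4.02 in TG Me-X04- against WT (SE 0.40, 16.3-fold, adjusted p = 0.000101) and 4.16 in TG Me-X04+ against TG Me-X04- (SE 0.45, 17.9-fold, adjusted p = 8.16e-05). Against WT, the level in TG Me-X04+ microglia was 291-fold higher (log2FC 8.19, SE 0.42, adjusted p = 4.12e-09). These comparisons share libraries and are not independent of each other. Within each of the 4 animals with both populations the TG Me-X04+ library was higher, by 3.44, 4.40, 4.24 and 3.71 on the log2 scale. Set A and set B gave 3.92 and 4.49 for the same difference. With log2(RPKM + 1) the step from WT to TG Me-X04- was 3.42, and with quantile normalization the other step was 3.42 as well, all still called.

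**Figure D1:**
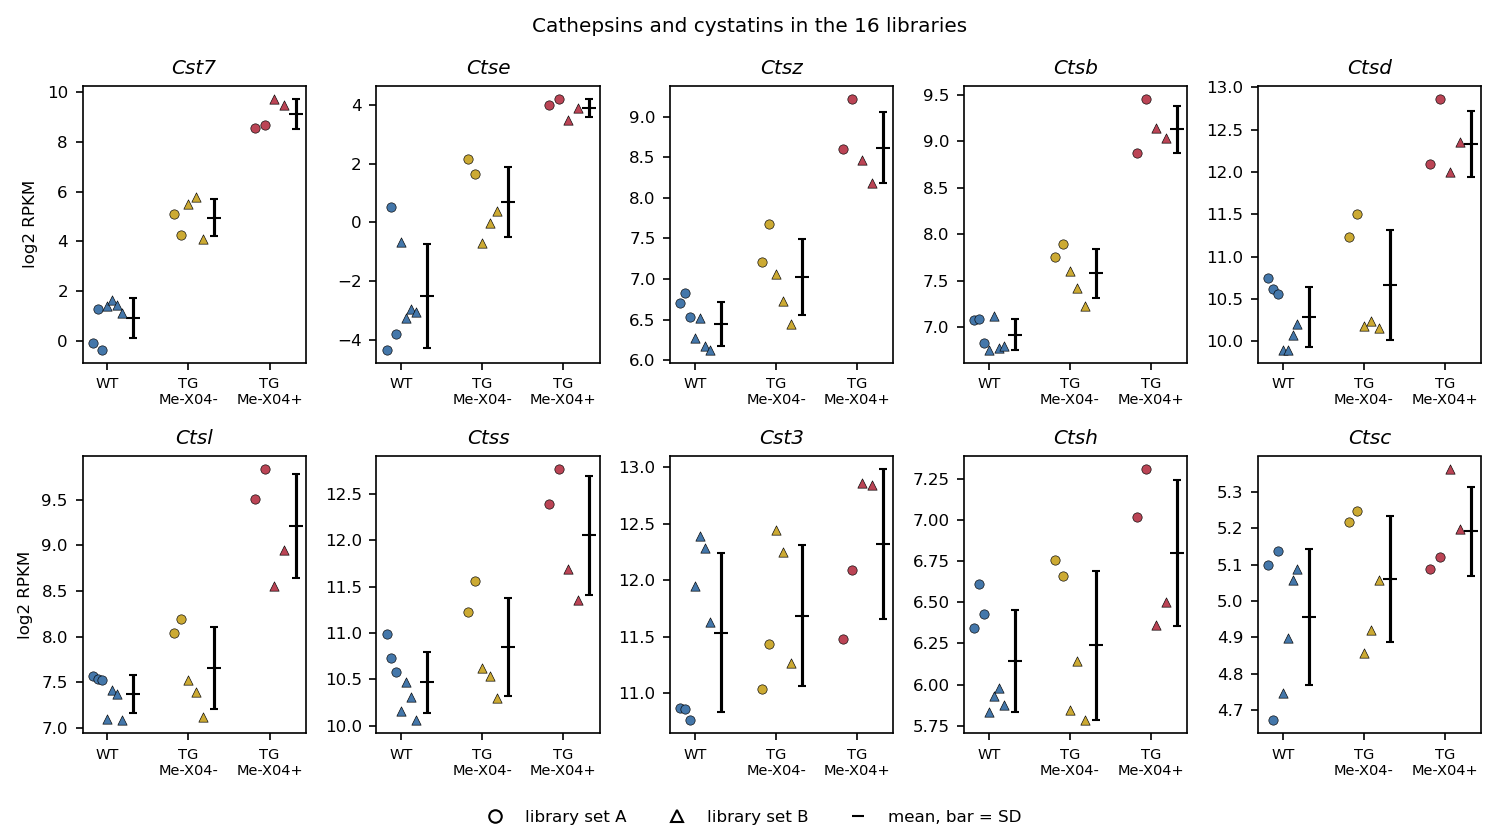
Levels of the 10 genes in log2 RPKM (vertical axes, a separate scale for each gene) by group, 1 point per library, with circles and triangles for the 2 library sets and the mean with its SD beside them. Cst7 and Ctsb stand in 3 separate ranges, while Cst3 and Ctsc overlap between all groups.

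Cst3 had the highest mean of the 10 messages in WT and TG Me-X04- microglia. In single libraries, Ctss lay above Cst3 in WT library 1, and both Ctss and Ctsd did in TG Me-X04- libraries 1 and 2. Cst3 showed no call in any comparison. Its levels ran from 10.76 to 12.39 log2 RPKM in WT libraries (median 11.63). TG Me-X04- libraries 1 to 5 read 11.04, 11.44, 12.44, 12.25 and 11.27, and TG Me-X04+ libraries 1 to 4 read 11.48, 12.09, 12.86 and 12.84. The pooled groups overlapped, and the spread followed the library sets: the 3 WT libraries of set A lay between 10.76 and 10.87, the 4 of set B between 11.63 and 12.39. Among the libraries of set A the groups stood in separate ranges, and in set B both TG Me-X04+ libraries lay above all others. The log2FC was 0.63 in TG Me-X04+ against TG Me-X04- with a 95% interval of -0.45 to 1.72 (adjusted p = 0.566) and 0.78 in TG Me-X04+ against WT with an interval of -0.23 to 1.80 (adjusted p = 0.319). All 4 animal pairs were higher in TG Me-X04+ cells, by 0.45, 0.66, 0.41 and 0.60. With the TG animals as a block the difference was 0.53 (adjusted p = 0.0424), under the fold threshold of 0.7. With a term for the library sets the difference from WT was called (0.86, adjusted p = 0.0114), and with quantile normalization it turned to -0.11. In WT libraries the mean of Cst3 was 10.6 log2 units above that of Cst7, in TG Me-X04- libraries 6.74 and in TG Me-X04+ libraries 3.21. Cst7 accordingly supplied 0.0677% of the summed RPKM of both cystatins in WT (range 0.0447% to 0.130%), 0.983% in TG Me-X04- (0.683% to 1.62%) and 9.82% in TG Me-X04+ microglia (8.48% to 11.6%).

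The calls among the cathepsins were made between the sorted TG populations and against WT. In TG Me-X04+ against TG Me-X04-, 5 of the 8 cathepsins and Cst7 were DE, all higher, so 6 of the 10 genes, where 5.49% of all genes were DE (3.44% DE and higher). The groups did not overlap for the same 6 genes, against 7.93% of all genes. In TG Me-X04- against WT only Cst7 was DE, 1 of the 10 genes, where 0.201% of all genes were (0.189% DE and higher), and 2 of the 10 had groups that did not overlap (1.06% of all genes). Limma called no cathepsin there, and Ctsb, Ctse and Ctsz had an unadjusted p under 0.05. By group means, all 10 genes were higher in TG Me-X04- than in WT within set A, and 8 of them within set B. The share of all genes that were higher within each set was not taken, so these counts are descriptions only. TG Me-X04+ against WT gave 7 DE genes, all higher, where 14.3% of all genes were DE (8.25% DE and higher), and 7 with groups that did not overlap (10.5% of all genes). The median log2FC of the 10 genes was 1.55, 0.38 and 1.94 in these comparisons, and that of all genes was -0.09, 0.01 and -0.11.

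**Figure D2:**
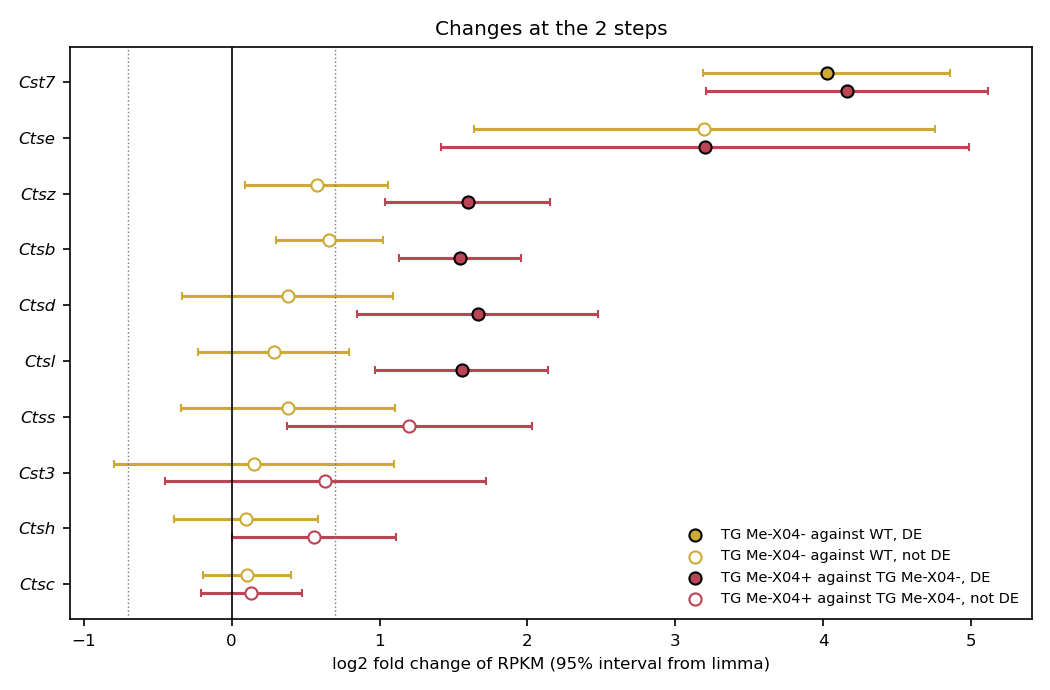
Log2 fold changes of RPKM with 95% intervals from limma (horizontal axis) for the 10 genes at the step from WT to TG Me-X04- and at the step from TG Me-X04- to TG Me-X04+, with filled points for DE genes. Cst7 changed at both steps, by 4.02 and 4.16, whereas Ctsb, Ctsd, Ctse, Ctsl and Ctsz were DE only in the comparison of the sorted TG populations, which does not test whether the steps differ.

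Cathepsin B, an endopeptidase that also acts as a carboxypeptidase, stood in a separate range in each group. Ctsb lay between 6.76 and 7.12 log2 RPKM in WT libraries (median 6.84). It read 7.76, 7.90, 7.61, 7.43 and 7.23 in TG Me-X04- libraries 1 to 5 and 8.87, 9.46, 9.14 and 9.04 in TG Me-X04+ libraries 1 to 4. The TG Me-X04- libraries lay between the WT and the TG Me-X04+ range. TG Me-X04+ microglia were 2.91-fold above TG Me-X04- (log2FC 1.54, SE 0.20, adjusted p = 0.000287) and 4.61-fold above WT (adjusted p = 6.62e-07). Set A gave 1.34 and set B 1.67 for the difference between the TG populations. The step from WT to TG Me-X04- was 0.66 with a 95% interval of 0.30 to 1.02, and its adjusted p of 0.227 missed the threshold. The term for the library sets lowered that p to 0.0145, with a log2FC of 0.67 that stayed under the fold threshold of 0.7.

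Ctsz and Ctsl, a carboxypeptidase and a potent endopeptidase, moved by about as much as Ctsb between the sorted populations. Ctsz had a range of 6.13 to 6.83 log2 RPKM in WT (median 6.52), with 7.21, 7.68, 7.06, 6.73 and 6.44 in TG Me-X04- and 8.61, 9.22, 8.46 and 8.19 in TG Me-X04+ libraries. Its TG Me-X04- libraries overlapped the WT range, and all TG Me-X04+ libraries lay above both. The log2FC of Ctsz was 1.60 in TG Me-X04+ against TG Me-X04- (SE 0.26, adjusted p = 0.00197), and the 4 animal pairs differed by 1.40, 1.54, 1.40 and 1.46. For the same difference set A gave 1.47 and set B 1.58. Ctsl ranged from 7.08 to 7.57 in WT (median 7.41), with 8.04, 8.20, 7.52, 7.40 and 7.12 in TG Me-X04- and 9.51, 9.83, 8.55 and 8.95 in TG Me-X04+ libraries. Here too only the TG Me-X04+ libraries stood clear of the rest. Between the sorted populations Ctsl was 2.94-fold higher on the Me-X04+ side (log2FC 1.55, SE 0.28, adjusted p = 0.00310), by 1.55 among set A libraries and by 1.40 among those of set B. Quantile normalization lowered the difference of Ctsl to 0.71 and ended its call (adjusted p = 0.0733), while Ctsb and Ctsz stayed called at 0.71 and 0.79.

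**Figure D3:**
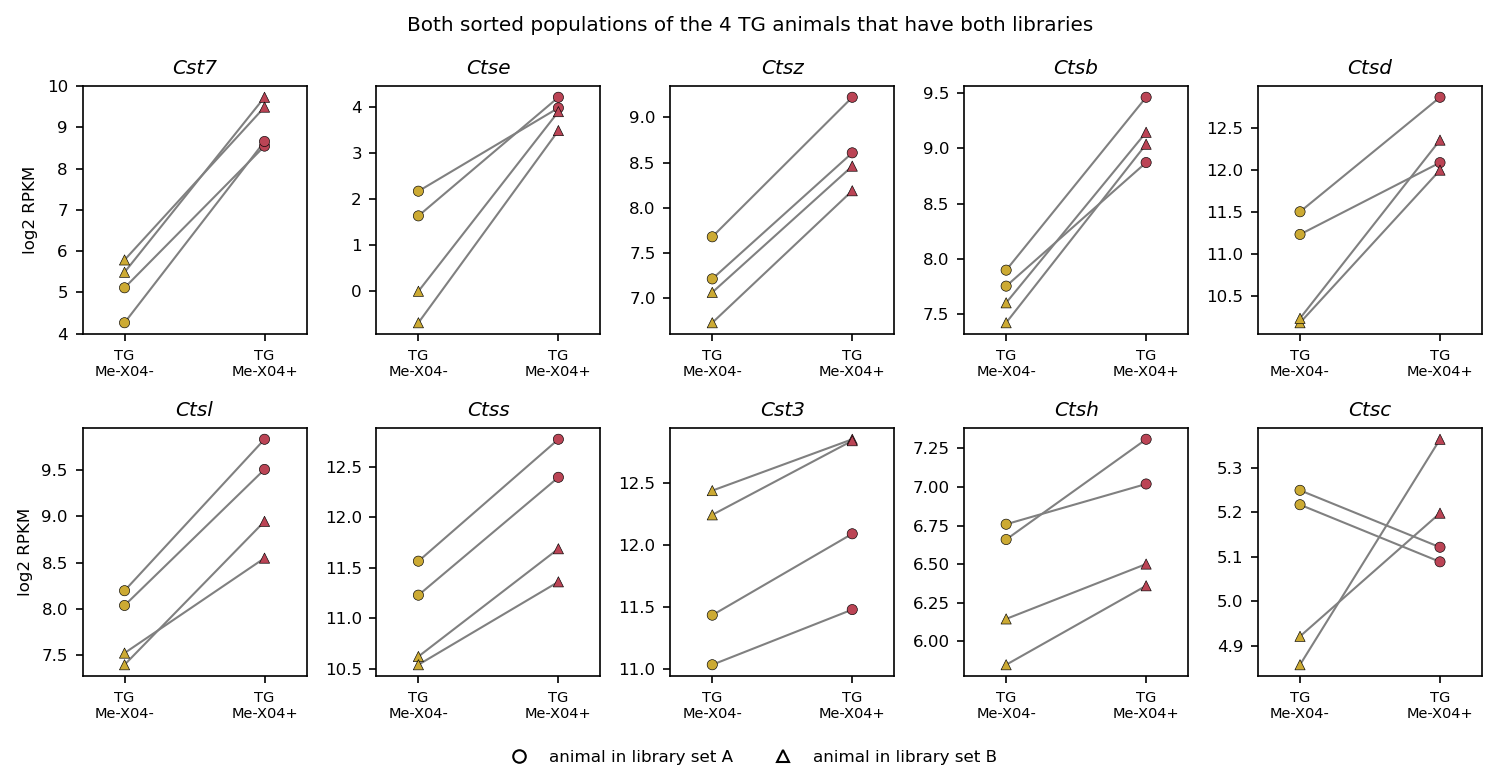
Levels in log2 RPKM (vertical axes) of the 10 genes for the 4 TG animals that gave both sorted populations, joined by a line for each animal. Every line rises except those of Ctsc in animals 1 and 2, where the TG Me-X04+ library was lower by 0.13.

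Cathepsin S, which keeps its activity at neutral pH and trims the invariant chain of MHC class II, was the most abundant protease in WT microglia. Ctss ran from 10.06 to 10.99 log2 RPKM in WT libraries (median 10.47), with 11.23, 11.57, 10.62, 10.54 and 10.30 in TG Me-X04- and 12.39, 12.77, 11.69 and 11.36 in TG Me-X04+ libraries. TG Me-X04+ library 4, of set B, lay below TG Me-X04- library 2, of set A, but within each set the TG Me-X04+ libraries lay above the others. Ctss was DE against WT (log2FC 1.58, SE 0.37, adjusted p = 0.00650). Against TG Me-X04- its log2FC of 1.20 (95% interval 0.38 to 2.03) missed the threshold, with an adjusted p of 0.0868. With the TG animals as a block the same difference was 1.06 and was called (adjusted p = 0.00314), as it was with the animal as a random effect over all libraries (1.15, adjusted p = 0.0145) and with the term for the library sets (1.12, adjusted p = 0.000499). The animals differed by 1.16, 1.20, 1.06 and 0.82, all in the same direction. Quantile normalization brought it to 0.11 and ended the call against WT (0.39, adjusted p = 0.392).

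Of the aspartic proteases, Ctsd was abundant in every library and Ctse was almost absent from WT. Cathepsin D, a main endopeptidase of lysosomes, had levels of 9.90 to 10.75 log2 RPKM in WT (median 10.21), 11.24, 11.51, 10.19, 10.24 and 10.15 in TG Me-X04- and 12.09, 12.87, 12 and 12.36 in TG Me-X04+ libraries. The TG Me-X04+ libraries stood above all others. The mean of Ctsd in TG Me-X04+ libraries was 12.48 log2 RPKM for set A, where Cst3 had 11.79, and 12.18 for set B, where Cst3 had 12.85. The fold of Ctsd was 3.17 for TG Me-X04+ against TG Me-X04- (log2FC 1.66, SE 0.39, adjusted p = 0.0175) and 4.12 against WT (adjusted p = 0.000817). Set A gave 1.11 and set B 1.98 for the log2FC between the TG populations, and the animals 0.85, 1.36, 1.81 and 2.12. Against TG Me-X04-, the call was lost without TG Me-X04- replicate 5 (1.54, adjusted p = 0.0503), without TG Me-X04+ replicate 2 (1.48, adjusted p = 0.0599), with only the 2 groups in the fit and no block (adjusted p = 0.123) and with quantile normalization (0.74, adjusted p = 0.255). It was kept with the TG animals as a block (1.54, adjusted p = 0.00533).

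Cathepsin E, an endosomal protease of immune cells, was the least abundant member. Ctse lay between -4.34 and 0.53 log2 RPKM in WT libraries (median -3.04), from 1 to 74 reads. TG Me-X04- libraries 1 to 5 read 2.17, 1.63, -0.70, -0.01 and 0.38 (51 to 233 reads) and TG Me-X04+ libraries 1 to 4 read 3.98, 4.21, 3.49 and 3.90 (660 to 1112 reads). The TG Me-X04- libraries overlapped the WT range through WT library 2, the highest of its group with 74 reads, and WT library 4 with 43 reads, and the TG Me-X04+ libraries stood apart. Ctse had the largest fold of the proteases, at 84.4-fold in TG Me-X04+ against WT (log2FC 6.40, SE 0.79, adjusted p = 3.28e-05) and 9.21-fold against TG Me-X04- (log2FC 3.20, SE 0.85, adjusted p = 0.0339). The deposited values include a prior of about 2 reads, which pulls the lowest levels toward each other. With log2(RPKM + 1) the log2FC of Ctse dropped from 6.40 to 3.61 against WT and from 3.20 to 1.10 for TG Me-X04- against WT. The call against TG Me-X04- was not firm: it was lost when libraries were scaled by reads outside mitochondrial genes (2.81, adjusted p = 0.0509), and without any one of TG Me-X04- replicates 3, 4 and 5 (adjusted p = 0.0843, 0.0776 and 0.0810) or TG Me-X04+ replicates 1 to 4 (adjusted p = 0.0681, 0.0863, 0.0560 and 0.0587). It was kept with the TG animals as a block (3.12, adjusted p = 0.00617). Set A gave 2.20 and set B 3.80 for this difference. From WT to TG Me-X04- the log2FC was also 3.20 (SE 0.74) with an adjusted p of 0.143, and it was called without WT replicate 2 (3.70, adjusted p = 0.0167) and with library weights (2.68, adjusted p = 0.0180).

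Ctsc and Ctsh, the aminopeptidases of the family, were not DE in any comparison. Ctsc, which encodes the dipeptidyl peptidase that activates the serine proteases of immune granules and is a target of cystatin F, lay between 4.67 and 5.36 log2 RPKM in all 16 libraries. Its log2FC was 0.13 in TG Me-X04+ against TG Me-X04-, with a 95% interval of -0.21 to 0.47 that lies below the fold threshold of 0.7, and 0.24 against WT (interval -0.08 to 0.56). The groups overlapped and the animal pairs went both ways, by -0.13, -0.13, 0.51 and 0.28, with -0.13 for set A and 0.33 for set B. Ctsh lay between 5.78 and 7.31, with a log2FC of 0.56 in TG Me-X04+ against TG Me-X04- (interval 0.0026 to 1.11, adjusted p = 0.264) and 0.65 against WT (adjusted p = 0.0873). Every animal pair of Ctsh was higher in TG Me-X04+ cells, by 0.26, 0.65, 0.51 and 0.36, with 0.46 for set A and 0.51 for set B. The term for the library sets gave 0.49 for Ctsh with an adjusted p of 0.00790, still under the fold threshold.

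The make-up of the cathepsin messages was led by the same pair of genes in all groups. The 8 cathepsins summed to between 2506 and 4307 RPKM in WT, 2864 and 6818 in TG Me-X04- and 8824 and 16876 in TG Me-X04+ libraries. Ctss and Ctsd led in every library, with mean shares of 45.1% and 39.7% in WT, 44.9% and 39.5% in TG Me-X04- and 38.5% and 46.2% in TG Me-X04+ libraries. The Ctsd share within TG Me-X04+ libraries ran from 37.9% to 56.2% and overlapped that of the other groups. Among set A libraries its mean was 41.0% in TG Me-X04+ and 41.2% in WT, and among those of set B 51.3% and 38.6%. In the same order of groups, Ctsh had mean shares of 2.25%, 1.85% and 0.992%. Ctsc supplied 1.01%, 0.837% and 0.341%, and TG Me-X04+ libraries lay below all others for both. Ctse gave 0.0112%, 0.0440% and 0.134%. These shares are descriptions with no test.

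**Figure D4:**
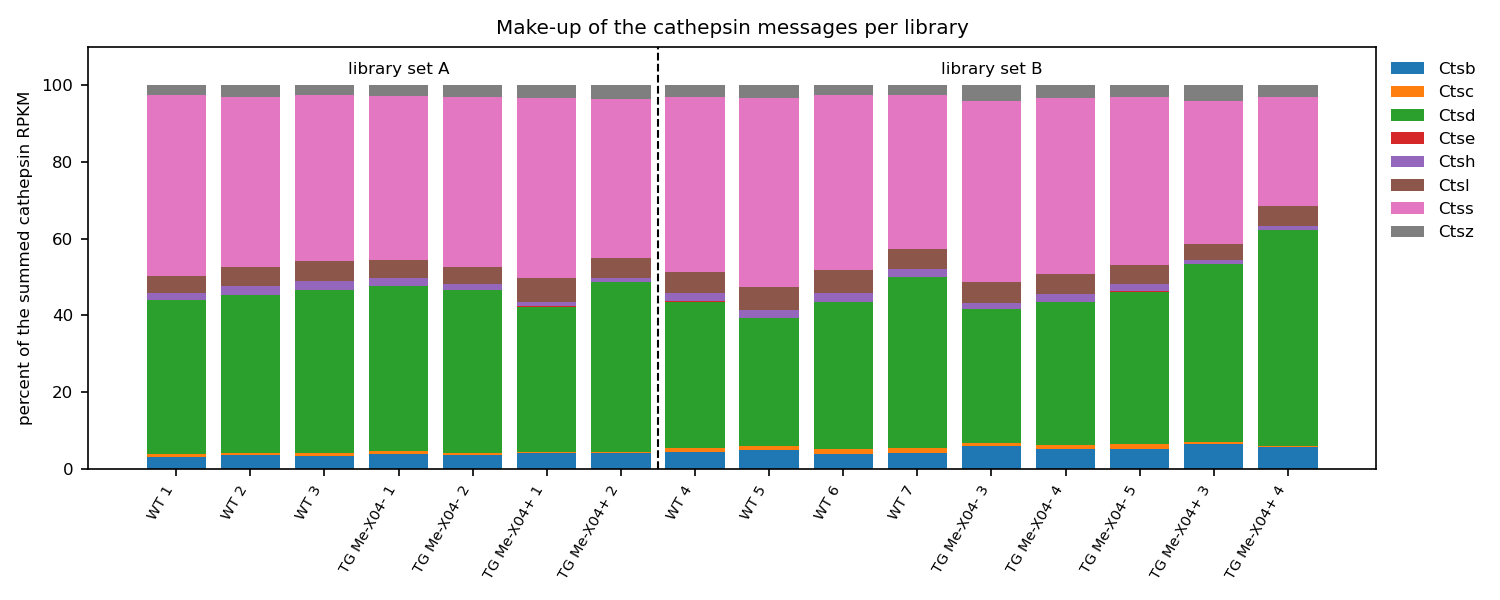
Share of each cathepsin in the summed cathepsin RPKM (vertical axis, percent) for each of the 16 libraries, ordered by library set and group, with a dashed line between the sets. Ctss and Ctsd fill most of every bar, and the Ctsd share is above that of WT libraries only in the TG Me-X04+ libraries of set B, at 46.4% and 56.2%.

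The ratio of protease to inhibitor within a library depended on which cystatin was counted. For the 6 cysteine cathepsins summed, over Cst3 and Cst7 summed, the log2 ratio was -0.64 ± 0.92 (SD, n = 7) in WT, -0.42 ± 0.93 (n = 5) in TG Me-X04- and 0.08 ± 1.14 (n = 4) in TG Me-X04+ libraries. The groups overlapped, and the range followed the library sets: WT libraries lay between 0.23 and 0.46 in set A and between -1.53 and -1.11 in set B. In set A the TG Me-X04- libraries read 0.49 and 0.57 and the TG Me-X04+ libraries 0.98 and 1.14. Set B gave -1.37 to -0.53 for TG Me-X04- and -0.99 to -0.81 for TG Me-X04+ libraries, which overlapped. Set A gave 0.53 and set B 0.15 for TG Me-X04+ minus TG Me-X04-. Across both sets the sum of the cystatins was dominated by Cst3.

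Taken singly against Cst3, none of the 8 cathepsin ratios was called in TG Me-X04+ against TG Me-X04-, where limma called the ratio to Cst3 for 4.96% of all genes (0.24% called and higher). At an unadjusted p under 0.05 it was 1 of the 8, Ctse (2.57, adjusted p = 0.116). Ctsd and Ctse encode aspartic proteases, which cystatins do not block. Their ratios to either cystatin compare messages and not a protease with its inhibitor. The log2 ratio differed by 0.91 for Ctsb (95% interval -0.17 to 1.99, adjusted p = 0.276), and by 0.92, 0.96 and 1.03 for Ctsl, Ctsz and Ctsd, with intervals that all include 0. For Ctss the difference was 0.57 (interval -0.92 to 2.06) and for Ctsc -0.50 (interval -1.53 to 0.53). Cst3 itself differed between the library sets, as given above. With a term for the sets 5 ratios were called, all higher, where 29% of all genes were called: Ctsb (0.79, adjusted p = 0.0117), Ctsd (0.86, adjusted p = 0.0225), Ctse (2.40, adjusted p = 0.0332), Ctsl (0.76, adjusted p = 0.0145) and Ctsz (0.80, adjusted p = 0.00822). With the TG animals as a block the same 5 ratios were called, where 10.7% of all genes were, with 0.93 for Ctsb (adjusted p = 0.0105) and 1.01 for Ctsd (adjusted p = 0.0289). The animal as a random effect gave 3 (Ctsb, Ctse and Ctsz), where 28.7% of all genes were called. Against WT, 2 ratios were called in TG Me-X04+ microglia, Ctsb (1.42, adjusted p = 0.0432) and Ctse (5.61, adjusted p = 0.000520), where 20.3% of all genes were called and 2.61% were called and higher. The count fell to 1 without any one of WT replicates 4 to 7 or TG Me-X04+ replicates 1 to 3. In TG Me-X04- against WT limma called no ratio to Cst3 (0.1% of all genes were called), and 1 of the 8, Ctse, had an unadjusted p under 0.05 (3.05, adjusted p = 0.620).

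Against Cst7 the ratios dropped in nearly every case, as they did for nearly every gene of the table. In TG Me-X04+ against TG Me-X04-, 7 of the 8 cathepsin ratios were lower, where 99.2% of all genes were, so the count says nothing particular of the proteases. Their sizes ran from -4.03 for Ctsc, which was not DE, to -2.50 for Ctsd, with a log2 ratio difference of -2.96 for Ctss, -2.62 for Ctsb, -2.61 for Ctsl and -2.57 for Ctsz. Ctse, whose rise was closest to that of Cst7, was the exception (-0.96, 95% interval -2.68 to 0.76, adjusted p = 0.262). TG Me-X04- against WT gave 7 lower ratios (99.7% of all genes), again all but Ctse (-0.83, adjusted p = 0.267), and TG Me-X04+ against WT gave 8 (100% of all genes). In absolute terms the mean log2 ratio of Ctsl to Cst7 went from 6.45 in WT over 2.71 in TG Me-X04- to 0.10 in TG Me-X04+ microglia. That last mean joins 0.96 to 1.17 in set A with -1.18 to -0.55 in set B. The WT mean joins 6.25 to 7.89 in set A with 5.68 to 5.97 in set B. For Ctsc the mean log2 ratio to Cst7 went from 4.03 over 0.11 to -3.92. Cst7 lay above Ctsc in all TG Me-X04+ libraries, and also in TG Me-X04- libraries 3 and 4 (log2 ratios -0.63 and -0.87).

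**Figure D5:**
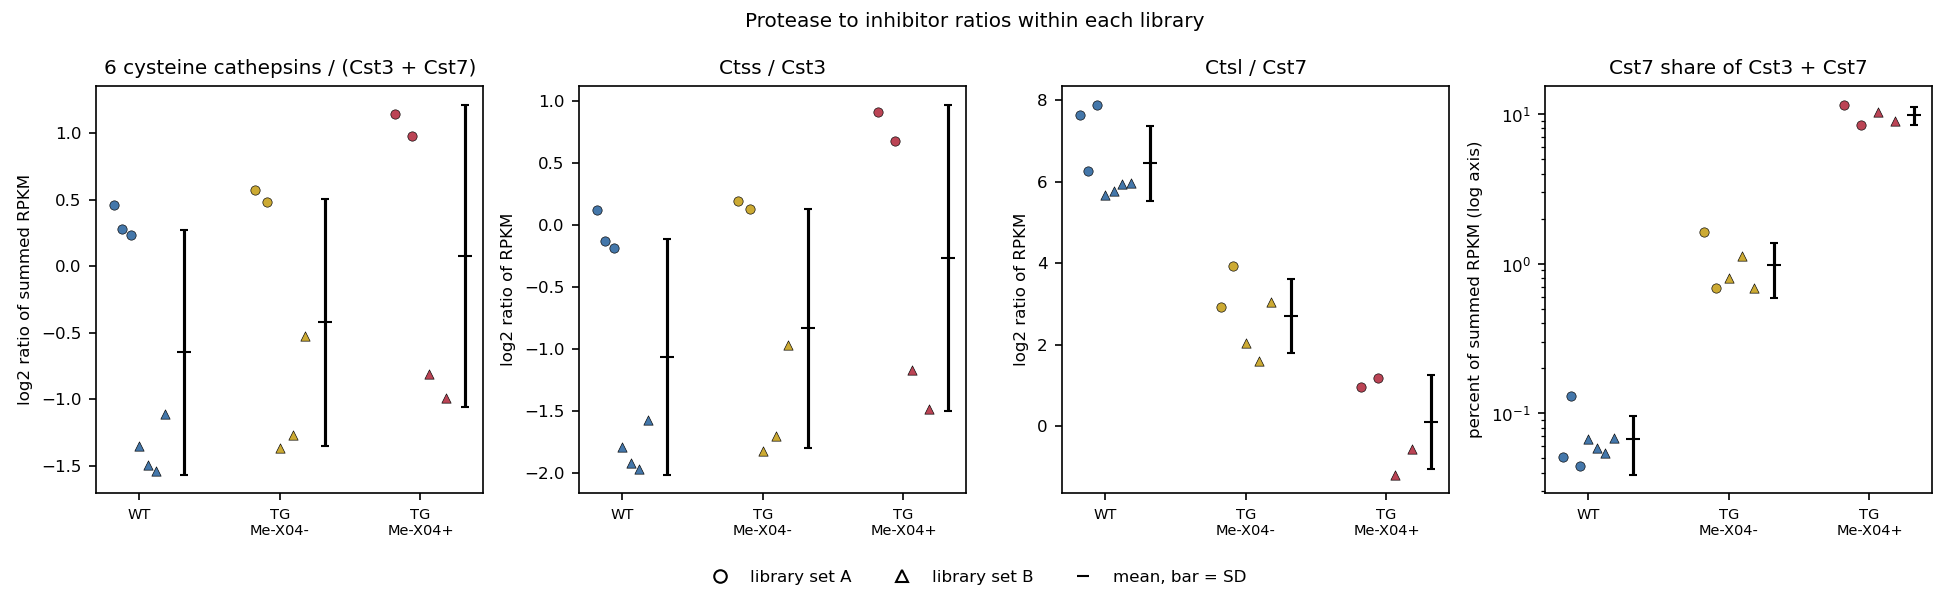
Log2 ratio of the 6 cysteine cathepsins to both cystatins, of Ctss to Cst3 and of Ctsl to Cst7, and the share of Cst7 in both cystatins (percent, log axis), for each library by group, with circles and triangles for the 2 library sets and the mean with its SD. The first pair of ratios splits by library set. The Ctsl to Cst7 ratio falls from a mean of 6.45 in WT to 0.10 in TG Me-X04+ libraries. In WT libraries it also splits, with 6.25 to 7.89 in set A and 5.68 to 5.97 in set B. The same holds in TG Me-X04+ libraries, with 0.96 to 1.17 and -1.18 to -0.55.

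The 10 genes lie on 7 chromosomes of GRCm38. Cst3 (chr2:148871722-148875692, minus strand) and Cst7 (chr2:150570415-150578944, plus strand) share chromosome 2 with Ctsz (chr2:174427493-174439039, minus strand), and the cystatins lie 1694723 bases apart. Ctsc (chr7:88278085-88310888, plus strand) and Ctsd (chr7:142375911-142388038, minus strand) share chromosome 7. The others are Ctsb (chr14:63122462-63145923), Ctse (chr1:131638306-131675505), Ctsh (chr9:90054152-90076089) and Ctss (chr3:95526786-95556403) on plus strands and Ctsl (chr13:64359337-64370890) on the minus strand. Exons of Ctsb overlap those of Fdft1, and exons of Ctsz those of Nelfcd, each on the other strand. Whether reads were counted by strand is not given in the sources used here, so reads of these pairs may not be separable. Fdft1 had a mean of 4.61 log2 RPKM in TG Me-X04+ libraries against 9.13 for Ctsb, and Nelfcd 4.38 against 8.62 for Ctsz. Ctsd shares exons with Gm49369 on its own strand, and Ctsl with the pseudogene Gm49230 and the antisense gene Gm47123, and none of the 3 is in the table.

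RefSeq promoter windows (GRCm38.p6, 250 bases before to 50 after the start) matched 7 of the 10 genes, all but Ctsb, Ctse and Ctsh, and were searched on both strands for 4 motifs. They are shown for the genes that held one, of which Ctsd and Ctsl moved with the sorted population, Ctsc did not, and Cst7 moved most. Ctsz, which moved as well (log2FC 1.60 in TG Me-X04+ against TG Me-X04-), and Cst3 held none of the 4 motifs. Capitals mark the match, and each sequence is read on the strand of its gene. Distances run from the first base of each match to the RefSeq start, which for Ctsd and Ctsl lies inside the gene bounds given above.
Cst7, chr2:150570398-150570426, plus strand: tctggttaaaaTGATTCAgcaagaaacca
Ctss, chr3:95526773-95526802, plus strand: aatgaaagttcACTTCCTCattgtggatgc
Ctsc, chr7:88277923-88277952, plus strand: gtcactaactaACTTCCTCaggccacctcg
Ctsd, chr7:142387908-142387937, minus strand: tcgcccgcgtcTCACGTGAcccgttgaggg
Ctsl, chr13:64370739-64370768, minus strand: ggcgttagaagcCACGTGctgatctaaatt
CACGTG, the E-box that factors of the MiT/TFE family can bind, was found for Ctsd, 98 and 245 bases before the start, and for Ctsl, 236 bases before it, and in 7.15% of all 32851 promoters. Its longer form TCACGTGA, which contains CACGTG, was found for Ctsd and in 0.974% of promoters, 99 bases before the start. GAGGAAGT, a motif bound by PU.1 and shown here as its reverse complement, was found for Ctss and for Ctsc and in 3.2% of promoters. Its first base lay 2 bases before the start of Ctss, which rose against WT, so that the match crosses that start. For Ctsc, which was not called, it lay 151 bases before the start. TGANTCA, a pattern that takes in AP-1 sites and other centre bases, was found for Cst7 alone of the 7 and in 7.81% of promoters. The centre base of the Cst7 match is T, which falls under the other centre bases. Its first base lay 6 bases before the start, and the match reaches the start base. A match is a description of the letters and not a binding site.

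Other genes of the same pathway were read from lists of cathepsins, inhibitors and of activation and sorting factors. Of 17 further cathepsins 5 were measured and 1 was DE in TG Me-X04+ against TG Me-X04-, Ctsa (protective protein, a serine carboxypeptidase), with a log2FC of 1.26 (adjusted p = 0.0207) and 1.56 against WT (adjusted p = 0.000971). Of 25 further cystatins and stefins 2 were measured. Cstb, the cytosolic stefin B, was higher in TG Me-X04+ than in WT microglia (1.65, adjusted p = 0.0136) with 0.85 against TG Me-X04- (adjusted p = 0.339), and Kng2, a kininogen at a level near the floor, was lower than in WT (-2.06, adjusted p = 0.0312). Ctla2b, which resembles the propeptide of cysteine cathepsins, was 1 of 2 measured among 6 other inhibitors and was higher at 0.94 against TG Me-X04- (adjusted p = 0.0463) and 1.73 against WT (adjusted p = 0.000130). Of 9 measured activation and sorting factors, 4 were DE and higher in TG Me-X04+ against TG Me-X04-, where 3.44% of all genes were. They were Gnptab (1.35, adjusted p = 0.0121) and Gnptg (1.16, adjusted p = 0.0316), subunits of the enzyme that begins the mannose 6-phosphate tag, Lamp2 of the lysosomal membrane (1.12, adjusted p = 0.00813) and progranulin, Grn (0.98, adjusted p = 0.0319). Psap, the saposin precursor, joined them against WT (0.70, adjusted p = 0.0362). Lgmn, the legumain that cleaves several procathepsins, was not DE (-0.23 against TG Me-X04-, adjusted p = 0.604), nor were M6pr, Nagpa and Sort1. In TG Me-X04- against WT limma called no gene of these lists, and 1 other inhibitor and 2 activation and sorting factors had an unadjusted p under 0.05.

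The genes whose levels most resembled those of Cst7, by Pearson r over the 16 libraries among 7453 genes with a mean of at least 2 log2 RPKM, were Apoe (r = 0.987), Axl (0.977), Lgals3bp (0.975), Cd52 (0.975) and Lyz2 (0.973). Such an r mostly follows the group means. After these were taken away, r with Cst7 was 0.861 for Apoe, 0.836 for Cd52, 0.676 for Lyz2, 0.526 for Lgals3bp and 0.350 for Axl. Among the members, the deviations of Cst3 and Cst7 had an r of 0.785, whereas those of Cst3 had an r of -0.712 with Ctsh, -0.594 with Ctsd and -0.583 with Ctss. The library sets are part of these deviations. The values are descriptions over 16 libraries that share 3 groups and 2 sets.

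Several measures moved with the sorted population beside these genes. The values are relative to a library size that includes the mitochondrial reads, whose share was higher in TG Me-X04+ libraries. Scaled by the reads outside mitochondrial genes, the log2FC against TG Me-X04- was 1.15 for Ctsb, 1.27 for Ctsd, 1.16 for Ctsl, 1.20 for Ctsz and 3.77 for Cst7, all still called, while the median of all genes moved from -0.09 to -0.49. Markers of border macrophages (5 of 5 measured) summed to 2.41 to 5.36 RPKM in WT, 1.67 to 6.81 in TG Me-X04- and 2.69 to 20.1 in TG Me-X04+ libraries, and those of neutrophils (3 of 6 measured) to at most 12.7, 26.0 and 21.0 (medians 0.660, 0.599 and 7.93). Limma called no gene of either list in any comparison, and 1 of each had an unadjusted p under 0.05 in TG Me-X04+ against WT. Of 3 monocyte markers 1 was measured, Ccr2, at 2.07 to 4.00 RPKM for WT, while TG Me-X04+ libraries had 0.749 to 1.23. Ccr2 was DE and lower in TG Me-X04+ against WT (-1.57, adjusted p = 0.000857). None of the 3 T-cell markers was in the table. Endothelial markers (2 of 3 measured) summed to at most 12.5 RPKM in any library, and they moved apart: Flt1 was higher in TG Me-X04+ against TG Me-X04- (3.55, adjusted p = 0.00608), while Pecam1 had -2.47 there (adjusted p = 0.233) and was lower against WT (-4.83, adjusted p = 0.00360). Marker lists of dendritic cells, B cells, astrocytes, neurons and oligodendrocytes summed to at most 29.2 RPKM, the highest value being that of astrocytes in a WT library. The only call in these lists was neuronal Snap25, lower in TG Me-X04+ against WT (-3.19, adjusted p = 0.00772). The part of these cells in the results was not tested.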

How the data were processed

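RNA of sorted microglia had been sequenced in 16 libraries, which were grouped by their labels (7 WT, 5 and 4 of the sorted TG populations). Per the methods and processing notes, the authors trimmed reads with Trim Galore 0.4.4, aligned them to GRCm38 with STAR 2.5.4b, counted them on Gencode genes with featureCounts and scaled them with edgeR 3.24.3. The authors deposited log2 RPKM values of 17951 genes, to which a prior of about 2 reads at the mean library size had been added, beside the gene length. Columns of their own comparisons (log fold changes, mean expression, moderated t, p-values, adjusted p-values and log odds) were not used. Symbols were deposited for 12919 genes, and the reference gave symbols for 4874 more. Coordinates are from a GRCm38 annotation of a later release than the one counted on.

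The tests on log2 RPKM used limma 3.58.1 under R 4.3.3, with lmFit over all 16 libraries, 1 coefficient per group and a trended eBayes. They were two-sided, and p-values were adjusted by Benjamini-Hochberg across every gene. DE meant an adjusted p below 0.05 with a log2FC of 0.7 or more in size. The quasi-likelihood test that the methods name needs counts and was not run. Ratios were fitted the same way, after the log2 RPKM of Cst3 or Cst7 was subtracted from every other gene. A ratio was called at the same thresholds. Summed ratios got no test. Reads were recovered from the steps of the values (100% whole within 0.01 reads) for depths and 2 alternatives. The test was checked on simulated data. Data were read with the data.table package (1.17.8) and drawn with matplotlib 3.10.9 in Python 3.11.15.

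The pairing comes from the labels, which give same-numbered TG libraries 1 animal. Their deviations from the group means had an r of 0.292 to 0.329 over genes (4 pairs). WT mice are other animals, and the r of their same-numbered libraries with TG libraries ran from -0.289 to 0.315. A block of the bare number, as planned, puts them with TG animals, so 2 alternatives were added after seeing the data: the animal as a factor in the 9 TG libraries, and as a random effect over all 16 (duplicateCorrelation, within-animal correlation 0.386). The labels say nothing of pooling, and p-values measure the spread between these libraries.

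The members and lists were chosen with earlier results of these data known. Named were all members, each DE gene of the 4 pathway lists, and the 5 genes most like Cst7. Lgmn, M6pr, Nagpa, Sort1, Tmem119, P2ry12, Flt1, Pecam1, Ccr2, Snap25 and the genes that overlap members were named after their values were seen. Alternatives were other variance models, library weights, median centring, quantile normalization, scaling by reads outside mitochondrial genes, pseudocounts of 1 and 0.1, a filter at a mean log2 RPKM of 0, no fold threshold, a fit of the 2 groups compared alone, a block of the replicate number, a term for the library sets, voom on recovered reads, and each library left out in turn.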

Additional observations from a re-analysis of the deposited data

How the results depend on the processing

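Of the 10 genes in 3 comparisons, every call of Cst7, Ctsb and Ctsz kept its direction and its side of the threshold under all alternatives run. No called difference changed sign. Uncalled ones did. In TG Me-X04+ against TG Me-X04-, quantile normalization gave -0.30 for Ctsc, -0.049 for Ctsh and -0.25 for Cst3, and scaling by reads outside mitochondrial genes gave -0.26 for Ctsc. Against WT, TG Me-X04+ values turned to -0.13 (Ctsc) and -0.11 (Cst3) with quantile normalization and to -0.066 (Ctsc) outside mitochondrial reads. In TG Me-X04- against WT, Ctsh gave -0.035 without TG Me-X04- replicate 1 and -0.0099 without replicate 2, within a range up to 0.21 over single libraries left out. Cst3 gave -0.061 with library weights and -0.039 without TG Me-X04- replicate 3, within a range up to 0.31. The cause was not tested.

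The number of members called ranged from 4 to 6 in TG Me-X04+ against TG Me-X04- when single libraries were left out, from 1 to 2 in TG Me-X04- against WT, where library weights also gave 2, and stayed at 7 in TG Me-X04+ against WT. With single libraries left out, DE counts over all 17951 genes were 552 to 1021, 19 to 33 and 2124 to 2605 in that order. Ratios to Cst3 called in TG Me-X04+ against TG Me-X04- went from 0 to 5 with the term for the library sets. That term called 29% of all genes, in place of 4.96%. Against WT they went from 2 to 5 with that term, where 9308 of 17950 genes were called, and to 4 with library weights, where 6266 were. They fell to 1 with log2(RPKM + 1) (2314 genes called) or only the 2 groups compared (2681 genes called). With single libraries left out they ranged from 1 to 2, and the fits that gave 1 called 2240 to 4758 genes. The main fit called 3642 genes. With Cst7 alone as inhibitor the summed log2 ratio differed by -2.89, -3.64 and -6.53 (between the TG populations, then for TG Me-X04- and for TG Me-X04+ cells relative to WT), and with mean log2 values in place of sums by -1.30, -1.74 and -3.04, against 0.50, 0.22 and 0.73. Single libraries left out gave 0.15 to 0.86, -0.02 to 0.46 and 0.37 to 1.08.

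An alternative chosen after seeing the data took the TG animals as a replicate block. It called 7 members between the TG populations, where 1079 of 17951 genes were DE. Ctss was added and no other call of a member changed. The same block called 5 ratios to Cst3, where 10.7% of all genes were called, and 7 to Cst7, where 99.3% were. The summed ratio differed by 0.47. The animal as a random effect gave 7, 1 and 7 members, where 2110, 35 and 2561 of all genes were DE. It gave 3, 0 and 2 ratios to Cst3, and in the comparisons with 3 and 0 it called 28.7% and 0.0557% of all genes. The last count, 2, equals that of the main fit, where 20.3% of all genes were called. The share under the random effect is not given here, so this count is a description only. The planned block of the bare replicate number joins WT mice to unrelated TG animals. That block gave 6, 1 and 7 members, where 894, 18 and 2537 of all genes were DE. It gave 0, 0 and 2 ratios to Cst3, and in the comparisons with 0 it called 3.84% and 0.0557% of all genes. Its count of 2 again equals that of the main fit, and its share of all genes is not given here. The block of the bare number added Ctss (1.12, adjusted p = 0.0421) and ended the call of Ctse between the TG populations (3.04, adjusted p = 0.0539). Over all genes, DE counts of 986, 36 and 2562 became 2142, 101 and 3919 with the term for the sets. The random effect gave 2110 and only the 2 groups compared gave 470 in place of 986, and TG Me-X04- against WT gave 175 with library weights, 13 with log2(RPKM + 1), 18 with the block of the bare number and 19 with the filter. Depth limits Ctse and Cst7 in WT, with 1 to 74 and 10 to 77 reads a library.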
